A study of Homo sapiens with 12 samples.

Results

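The genes described are 10 heat shock chaperone genes of the cytosol and the mitochondrion: HSPE1, HSPD1, HSP90AB1, HSP90AA1, HSPA8, HSPA4, HSPA9, HSPH1, DNAJB1 and DNAJA1. They were taken by name, with earlier results of these data known. A gene was read from the probe sets that the array annotation assigns to its symbol alone. Under that rule 9 of the 10 genes were measured, with 28 of the 41097 probe sets that carry a single symbol. HSPA8, the constitutive HSP70 of the cytosol, has no value here, because its 4 probe sets are also assigned to the small nucleolar RNAs SNORD14C and SNORD14D. The other 9 all passed the limit on low values and are among the 14080 genes tested.

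Transcripts were measured on 3′ expression arrays in U937, a human leukaemia line of the monocytic lineage. The cells had been transduced with an EVI1 expression vector or with the empty vector, and logarithmically growing cultures received 1 µM all-trans retinoic acid (ATRA) or the solvent, DMSO, for 24 h. The 4 groups are named by vector and agent and hold 3 arrays each, which the series calls biological replicates. The labels give neither the promoter of the vector nor whether a line is 1 clone. EVI1 is a transcription factor made from the MECOM gene. ATRA, derived from vitamin A, is a ligand of nuclear retinoic acid receptors and is used to mature certain myeloid leukaemia cells.

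Chaperones bind unfolded or partly folded proteins and help them reach or keep their native form. HSP70 proteins bind short hydrophobic stretches in a cycle of ATP hydrolysis that J-domain proteins start and nucleotide exchange factors end, HSP90 acts later on kinases, steroid receptors and other clients, and HSP60 with its HSP10 lid encloses proteins imported into mitochondria. Many of these genes are induced by heat shock factor 1 (HSF1) through heat shock elements in their promoters, and several are also expressed at high level in growing cells.

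The promoters are shown because many of these genes share promoter elements and their transcripts were compared as a family. RefSeq start sites (GRCh38.p14) gave 16 promoter windows for the 10 genes, each of 250 bases before and 50 bases after a start. A heat shock element was searched as inverted units on both strands: a pair of units as GAANNTTC or TTCNNGAA, and 3 units as GAANNTTCNNGAA or TTCNNGAANNTTC, which contains the pair. The palindromic E-box CACGTG, the core site of MYC and related factors, was searched as well. A pair of units was in 8 of the 16 windows, covering 7 genes, against 13.5% of all 35116 windows in the RefSeq table. The run of 3 units was in 5 windows, those of HSPD1, HSP90AB1, HSP90AA1, HSPA8 and DNAJA1, against 0.49% of all windows. The E-box was in 3 windows, those of HSPE1, HSPD1 and HSPA9, against 7.26% of all windows. None of these letters was in the windows of HSPA4 or HSPH1. HSPH1, which was also called for the averaged ATRA effect (-0.32), is not shown. Whether these letters go with the ATRA differences was not tested. The 250 bases before the start follow, with matches in capitals. They are given for HSPE1, HSPD1, HSP90AB1 and HSPA9, which had the lowest adjusted p for ATRA in EVI1 cells, and for DNAJB1, which had the smallest difference.
HSPE1, chr2:197500129-197500378, plus strand: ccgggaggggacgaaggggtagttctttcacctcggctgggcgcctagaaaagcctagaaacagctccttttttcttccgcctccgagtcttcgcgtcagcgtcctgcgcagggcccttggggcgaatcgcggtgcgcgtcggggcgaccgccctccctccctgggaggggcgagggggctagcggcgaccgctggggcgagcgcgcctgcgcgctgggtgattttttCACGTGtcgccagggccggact
HSPD1, chr2:197500275-197500524, minus strand: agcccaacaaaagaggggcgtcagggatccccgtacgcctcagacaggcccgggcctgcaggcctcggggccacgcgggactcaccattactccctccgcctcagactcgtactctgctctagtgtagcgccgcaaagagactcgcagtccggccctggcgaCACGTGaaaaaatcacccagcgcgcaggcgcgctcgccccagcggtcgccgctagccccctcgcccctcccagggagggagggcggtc
HSP90AB1, chr6:44247693-44247942, plus strand: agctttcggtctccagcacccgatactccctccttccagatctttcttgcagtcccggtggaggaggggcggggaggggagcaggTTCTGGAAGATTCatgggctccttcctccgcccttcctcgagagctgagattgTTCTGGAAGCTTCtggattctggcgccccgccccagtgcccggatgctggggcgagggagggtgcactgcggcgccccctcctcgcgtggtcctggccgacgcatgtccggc
HSPA9, chr5:138575402-138575651, minus strand: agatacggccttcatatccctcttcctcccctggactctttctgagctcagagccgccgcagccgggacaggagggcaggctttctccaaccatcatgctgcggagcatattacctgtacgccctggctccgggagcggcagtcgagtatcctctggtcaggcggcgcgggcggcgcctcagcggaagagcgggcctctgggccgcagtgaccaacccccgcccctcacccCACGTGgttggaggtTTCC
DNAJB1, chr19:14518398-14518647, minus strand: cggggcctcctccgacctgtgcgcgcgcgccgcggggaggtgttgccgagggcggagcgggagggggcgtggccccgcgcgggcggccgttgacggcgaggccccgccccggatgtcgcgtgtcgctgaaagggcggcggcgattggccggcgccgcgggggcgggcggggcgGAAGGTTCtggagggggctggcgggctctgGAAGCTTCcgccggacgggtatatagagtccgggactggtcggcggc
The HSPE1 and HSPD1 genes lie head to head, and their windows overlap by 204 bases on opposite strands, so the capitals of both lines are the same E-box, CACGTG, which starts 22 bases before the HSPE1 start. HSPD1 has another window, which holds TTCTGGAAAGTTC. HSP90AB1 has 2 separate runs of 3 units, TTCTGGAAGATTC and TTCTGGAAGCTTC. In HSPA9 the E-box lies 19 bases before the start, and TTCCAGAA runs across the start, so only its first bases appear. DNAJB1 has 2 separate pairs of units in the window shown, GAAGGTTC and GAAGCTTC. Genes with several starts are shown by a single window. A further DNAJB1 window holds GAAGCTTC just after its start, and another holds no match, as do the HSP90AB1 windows not shown. A match is a description of letters and does not show that a factor binds there.

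The array medians lay between 5.29 and 5.35 (log2), and arrays of a group correlated at 0.987 to 0.995 across probe sets. Of 14 myeloid identity genes 12 were measured, and 11 of these, including SPI1, CEBPA and LYZ, reached a level of 5 on all 12 arrays; MPO did not. The mean of the measured myeloid genes lay between 9.28 and 10.09 on the 12 arrays. The means of the erythroid, megakaryocyte, lymphoid, epithelial and stromal marker lists lay between 4.72 and 6.27 on all 12 arrays. Reaching 5 on all 12 arrays was not particular to the myeloid list. It held for 5 of 6 erythroid, 4 of 7 megakaryocyte and 4 of 9 T and NK genes measured. It also held for 3 of 7 B, 3 of 7 epithelial and 4 of 9 fibroblast and endothelial genes. The 5 MECOM probe sets lay between 2.61 and 3.6 in every group, which gives no check of the EVI1 label. The DMSO arrays of replicate 3 stood nearer to the ATRA arrays than the other DMSO arrays did: CD38, an ATRA-induced surface enzyme, was at 9.34 and 9.45 there against 6.44 to 7.05 on the other 4 DMSO arrays. Member calls that change without those 2 arrays are given with both values.

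All 9 chaperone genes had a lower mean after ATRA than after DMSO in both cell types. The median difference was -0.24 (log2) in vector cells and -0.26 in EVI1 cells, beside 0 and -0.02 over all genes tested. In EVI1 cells HSPE1 fell by 25.3%, HSP90AB1 fell by 22.1% and HSPA9 fell by 31.9%. In vector cells none of the 9 passed the test. Averaged over both cell types, HSPE1, HSPD1, HSP90AB1, HSPA9 and HSPH1 fell, of which HSPD1 fell by 17.5% and HSPA9 fell by 28.5%, the ends of the range. Less chaperone RNA per cell and fewer cells that express it cannot be told apart in bulk RNA.

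The shares over all genes are given beside these counts. The members were chosen with earlier results of these data known, so the shares are a description and not a test of the set. In vector cells 0 of 9 members were called lower, where 1.52% of all genes were, and 4 had an unadjusted p under 0.05, where 17.4% of all genes did in either direction. In EVI1 cells 3 of 9 were called lower, against 7.66% of all genes, and 4 had an unadjusted p under 0.05, against 28.8%. For the averaged effect 5 of 9 were called lower, against 11.3%, and 7 had an unadjusted p under 0.05, against 34.0%. A negative difference of any size, seen in 9 of 9 members, was seen in 50.4% of all genes in vector cells and 54.0% in EVI1 cells. The ATRA arrays lay below the DMSO arrays without overlap for 6 of 9 members in vector cells and 4 of 9 in EVI1 cells, against 11.4% and 14.5% of all genes. No member was called higher in any comparison.

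The replicate numbers were shared across the groups, and arrays of 1 number deviated together. With the replicate number as a block in the fit, 5 members were called lower in vector cells (HSP90AB1, HSPA4, HSPA9, HSPH1 and DNAJA1), where 10.1% of all genes were. In EVI1 cells 7 were (all but HSP90AA1 and DNAJB1), against 19.4%. For the averaged effect 8 were (all but DNAJB1), against 21.4%. The estimates are the same in both fits, and the standard errors are smaller with the block.

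**Figure D1:**
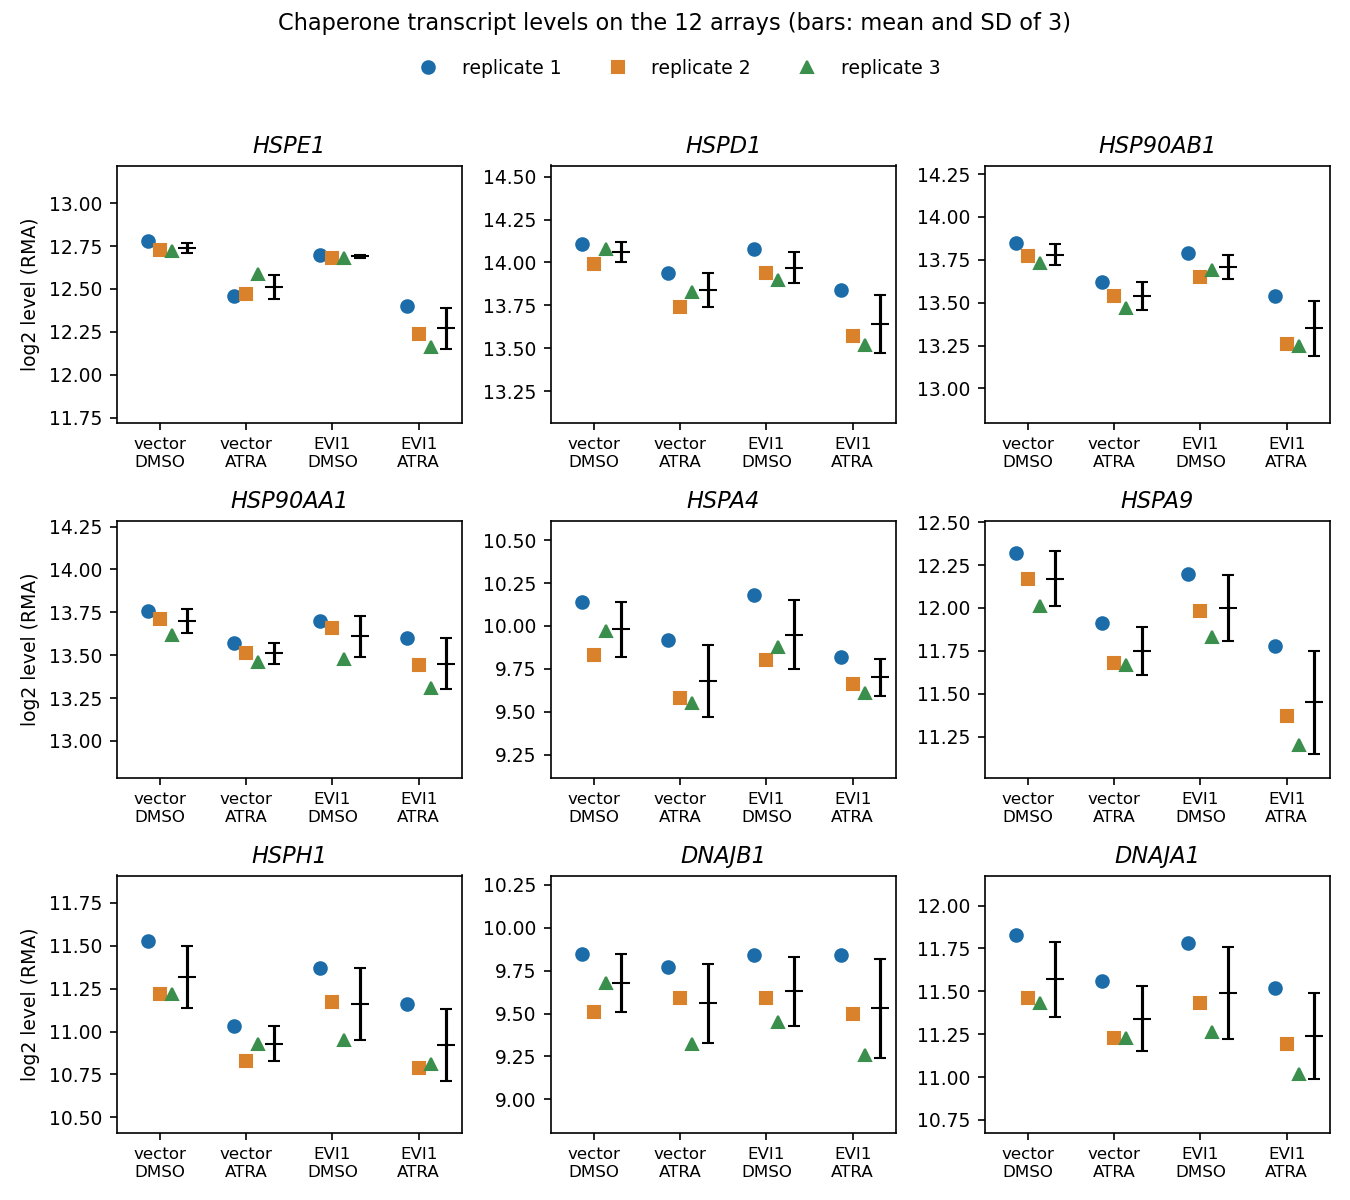
Each panel plots the log2 level of 1 gene (vertical axis, RMA, main probe set) on the 12 arrays, grouped by vector or EVI1 and DMSO or ATRA. Symbols mark replicates 1, 2 and 3, and bars give the mean and SD of 3 arrays. All panels span the same log2 range, and replicate 1 is the highest array of every group for all genes but HSPE1.

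In EVI1 cells the 3 mitochondrial chaperones were among the 4 genes with the largest ATRA differences. This did not hold in vector cells, where HSPA9 (-0.41), HSPH1 (-0.39) and HSPA4 (-0.30) had the largest. There HSPE1 was at -0.24 and HSPD1 at -0.22. The ranks were not tested. HSPE1 encodes HSP10, the lid of the mitochondrial chaperonin. It was at 12.78, 12.73 and 12.72 on the vector DMSO arrays and 12.46, 12.47 and 12.59 on the vector ATRA arrays. In EVI1 cells it was at 12.70, 12.68 and 12.68 with DMSO and 12.40, 12.24 and 12.16 with ATRA. All ATRA arrays were below all DMSO arrays of the same cell type. The difference was -0.42 ± 0.09 (SE) in EVI1 cells, with an adjusted p of 0.0115, and -0.24 ± 0.09 in vector cells, with an adjusted p of 0.2 (0.0535 with the replicate block). HSPE1 was read by 1 probe set. Its call in EVI1 cells was lost without EVI1 ATRA replicate 3, at -0.37 ± 0.10 and an adjusted p of 0.0549, and was kept without both DMSO arrays of replicate 3, at 0.0383.

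HSPD1 encodes HSP60, the chaperonin ring that HSPE1 closes. Its main probe set was at 14.11, 13.99 and 14.08 in vector DMSO, 13.94, 13.74 and 13.83 in vector ATRA, 14.08, 13.94 and 13.90 in EVI1 DMSO and 13.84, 13.57 and 13.52 in EVI1 ATRA. The ATRA arrays were below the DMSO arrays in both cell types without overlap. The difference was -0.33 ± 0.11 in EVI1 cells, with an adjusted p of 0.063 that became 0.00516 with the block. In vector cells it was -0.22 ± 0.11, with an adjusted p of 0.322 (0.0536 with the block). Averaged over both cell types HSPD1 fell by 0.28 on the log2 scale, with an adjusted p of 0.0234. That call was lost without both DMSO arrays of replicate 3 (0.0532), and without vector DMSO replicate 1, vector ATRA replicate 2 or 3, EVI1 DMSO replicate 1, or EVI1 ATRA replicate 2 or 3, at adjusted p of 0.0513 to 0.0618. These levels are close to the highest value of an array, 14.74 to 14.79.

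The probe sets of HSPD1 differed in size. The one with a mean of 12.78 over the 12 arrays gave -0.34 in vector cells and -0.54 in EVI1 cells, and the one with a mean of 7.79 gave -0.45 and -0.69. Another, with a mean of 5.97, gave 0 and -0.09. The probe set used for HSPD1 thus gave neither the largest nor the smallest difference of the gene.

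HSPA9 encodes mortalin, the HSP70 of the mitochondrial matrix, which also drives protein import. It was at 12.32, 12.17 and 12.01 in vector DMSO, 11.91, 11.68 and 11.67 in vector ATRA, 12.20, 11.98 and 11.83 in EVI1 DMSO and 11.78, 11.37 and 11.20 in EVI1 ATRA. DMSO and ATRA arrays did not overlap in either cell type. The difference was -0.55 ± 0.16 in EVI1 cells, with an adjusted p of 0.0349. In vector cells it was -0.41 ± 0.16, with an adjusted p of 0.189 that became 0.0055 with the block. Its 3 probe sets above the limit agreed in size, at -0.46 to -0.38 in vector cells and -0.55 to -0.50 in EVI1 cells. The call in EVI1 cells was kept without both DMSO arrays of replicate 3 (0.0402) and lost without EVI1 DMSO replicate 1 (0.135) or 2 (0.0837), or without EVI1 ATRA replicate 2 (0.11) or 3 (0.154).

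The cytosolic HSP90 pair differed in whether the test was passed. HSP90AB1 encodes HSP90 beta, the mostly constitutive form. It was at 13.85, 13.77 and 13.73 in vector DMSO, 13.62, 13.54 and 13.47 in vector ATRA, 13.79, 13.65 and 13.69 in EVI1 DMSO and 13.54, 13.26 and 13.25 in EVI1 ATRA. The ATRA arrays were again below the DMSO arrays without overlap. The difference was -0.36 ± 0.10 in EVI1 cells, with an adjusted p of 0.0369. In vector cells it was -0.24 ± 0.10, with an adjusted p of 0.254 that became 0.0348 with the block. Of the 12 fits that leave out 1 array, the call in EVI1 cells was kept in 3. Those were the fits without vector DMSO replicate 3, vector ATRA replicate 1 and EVI1 ATRA replicate 1. The other fits gave differences of -0.39 to -0.31, with limma's adjusted p at 0.05 to 0.147. Without both DMSO arrays of replicate 3 the difference was -0.37 ± 0.13, with an adjusted p of 0.0858.

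HSP90AA1 encodes HSP90 alpha, the more stress-inducible form. It was at 13.76, 13.71 and 13.62 in vector DMSO, 13.57, 13.51 and 13.46 in vector ATRA, 13.70, 13.66 and 13.48 in EVI1 DMSO and 13.60, 13.44 and 13.31 in EVI1 ATRA. The groups were apart in vector cells and overlapped in EVI1 cells. The difference was -0.18 ± 0.10 in vector cells and -0.16 ± 0.10 in EVI1 cells, with adjusted p of 0.409 and 0.348, and the block left both uncalled. Only the averaged difference, -0.17 ± 0.07, was called with the block (adjusted p 0.0127, 0.119 without it). The ATRA differences of HSP90AA1 and HSP90AB1 were not tested against each other.

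The HSP110 genes act as nucleotide exchange factors of HSP70. HSPH1, which encodes HSP105, was at 11.53, 11.22 and 11.22 in vector DMSO, 11.03, 10.83 and 10.93 in vector ATRA, 11.37, 11.17 and 10.95 in EVI1 DMSO and 11.16, 10.79 and 10.81 in EVI1 ATRA. The groups were apart in vector cells and overlapped in EVI1 cells. The difference was -0.39 ± 0.14 in vector cells and -0.24 ± 0.14 in EVI1 cells, with adjusted p of 0.172 and 0.303, which became 0.00803 and 0.0374 with the block. Averaged over both cell types HSPH1 fell by 0.32 on the log2 scale, with an adjusted p of 0.0418. That call was kept in 4 of the 12 fits that leave out 1 array, those without replicate 3 of vector DMSO or EVI1 DMSO and replicate 1 of vector ATRA or EVI1 ATRA, and the others gave adjusted p of 0.0538 to 0.107. It was also lost with no filter on low values (0.0519) and with every probe set tested on its own (0.0502).

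HSPA4, which encodes APG-2, was at 10.14, 9.83 and 9.97 in vector DMSO, 9.92, 9.58 and 9.55 in vector ATRA, 10.18, 9.80 and 9.88 in EVI1 DMSO and 9.82, 9.66 and 9.61 in EVI1 ATRA. The groups overlapped in both cell types. The difference was -0.30 ± 0.14 in vector cells and -0.26 ± 0.14 in EVI1 cells, with adjusted p of 0.301 and 0.256 that became 0.0177 and 0.0182 with the block. Its main probe set is of the x type, which can also read related sequences.

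The J-domain genes deliver clients to HSP70 and start its ATP hydrolysis. DNAJA1, a farnesylated HSP40 of the cytosol, was at 11.83, 11.46 and 11.43 in vector DMSO, 11.56, 11.23 and 11.23 in vector ATRA, 11.78, 11.43 and 11.26 in EVI1 DMSO and 11.52, 11.19 and 11.02 in EVI1 ATRA. The groups overlapped, since replicate 1 stood above the others in each, but within every replicate number the ATRA array was lower, by 0.20 to 0.27. The difference was -0.23 ± 0.18 in vector cells and -0.25 ± 0.18 in EVI1 cells, with adjusted p of 0.565 and 0.411 that became 0.0366 and 0.0165 with the block.

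DNAJB1, the main stress-inducible HSP40 partner of HSP70, was at 9.85, 9.51 and 9.68 in vector DMSO, 9.77, 9.59 and 9.32 in vector ATRA, 9.84, 9.59 and 9.45 in EVI1 DMSO and 9.84, 9.50 and 9.26 in EVI1 ATRA. The groups overlapped in both cell types. The difference, the smallest of the 9 genes in each, was -0.12 in vector cells (95% interval -0.49 to 0.25) and -0.09 in EVI1 cells (-0.46 to 0.28), with adjusted p of 0.808 and 0.805, and 0.409 and 0.491 with the block. These intervals, from the fit without the block, include both no change and the HSPE1 difference of the same cell type. With the block the intervals were -0.32 to 0.08 in vector cells and -0.30 to 0.11 in EVI1 cells. The latter includes no change but not the HSPE1 estimate of -0.42 in EVI1 cells. The HSPE1 interval with the block, -0.59 to -0.25, overlaps that of DNAJB1 in EVI1 cells. The ATRA differences of DNAJB1 and HSPE1 were not tested against each other.

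**Figure D2:**
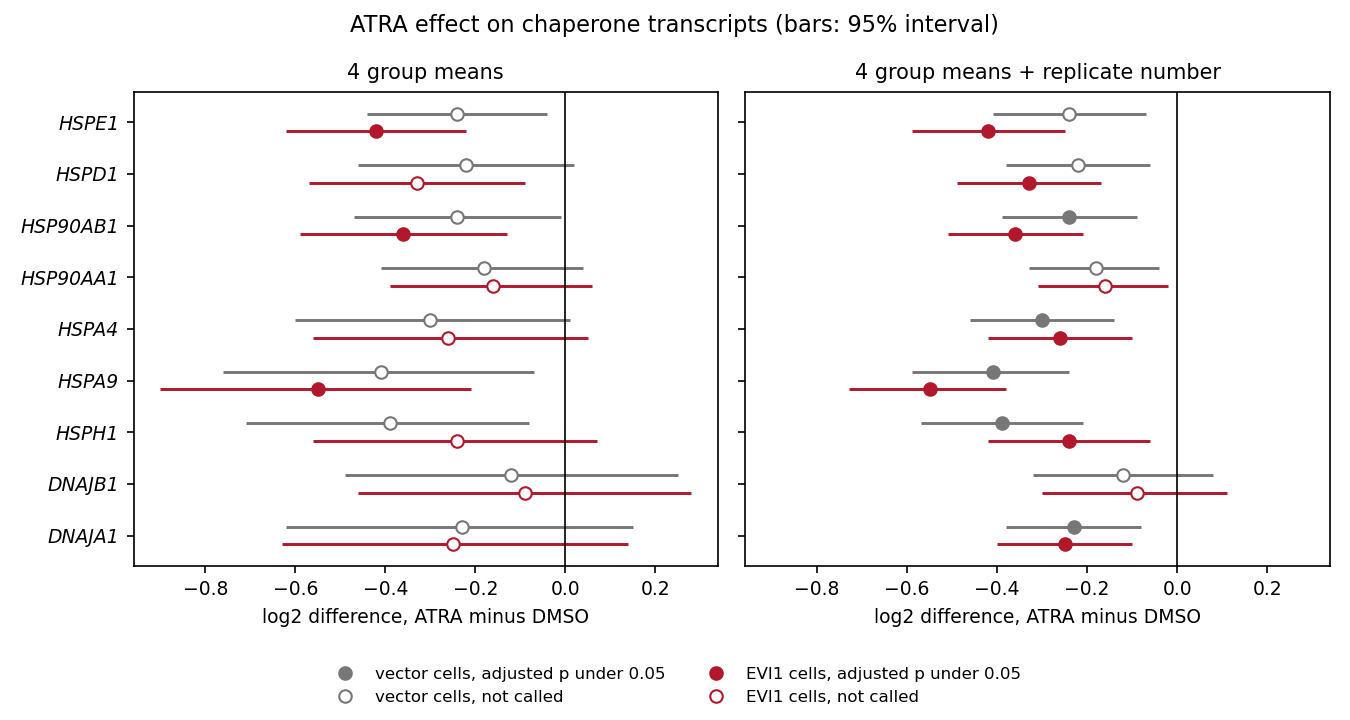
The horizontal axis is the log2 difference, ATRA minus DMSO, for each gene, with 95% intervals, in vector cells (grey) and EVI1 cells (red), from the fit of 4 group means (left) and with the replicate number added (right). Filled points passed an adjusted p of 0.05: 3 points on the left, all of EVI1 cells, and 12 on the right, 5 of vector cells and 7 of EVI1 cells.

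The direction did not rest on the probe set chosen. Of the 26 probe sets of the 9 genes that passed the limit, 25 had a negative ATRA difference in vector cells and 1 was at 0. In EVI1 cells all 26 were negative, from -0.69 to -0.09. Probe sets of 1 gene read overlapping RNA and are not independent. Both HSP90 genes, HSPD1 and HSPE1 have many processed pseudogenes, and the probe sets of the s and x types can read more than 1 transcript, so the share of signal from each gene is uncertain.

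**Figure D3:**
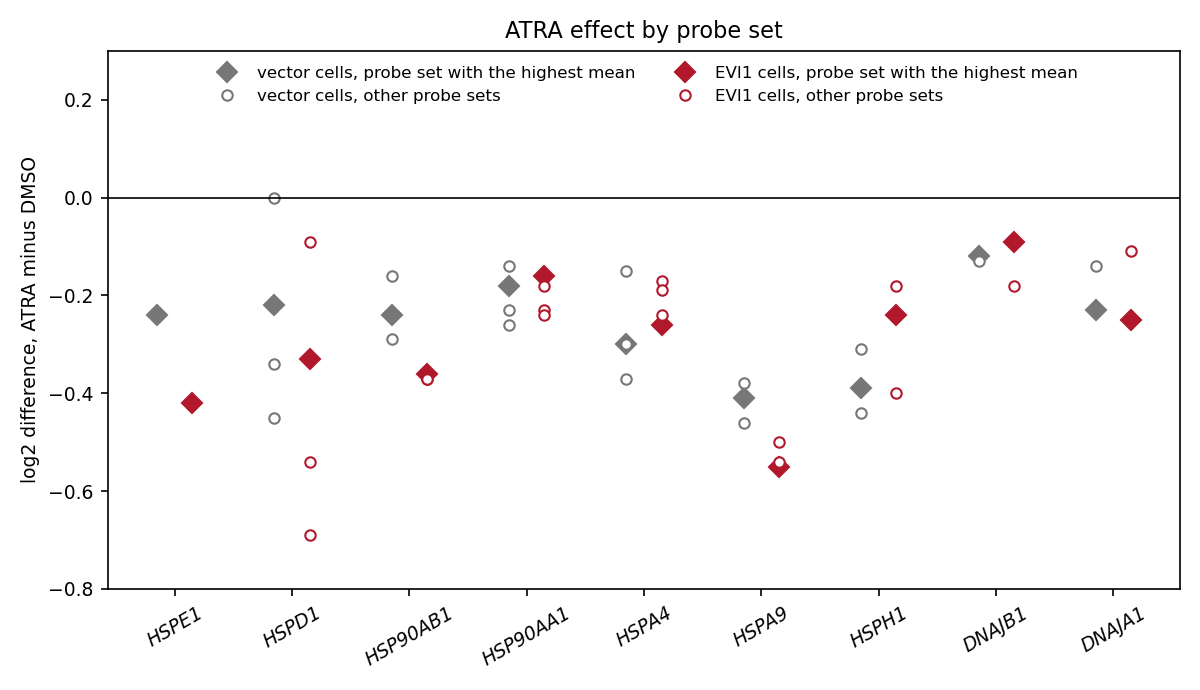
The vertical axis is the log2 difference, ATRA minus DMSO, for each of the 26 probe sets above the signal limit, by gene, in vector cells (grey) and EVI1 cells (red). Diamonds mark the probe set that stands for the gene and circles the others; all points lie at or below 0, and HSPD1 has the widest spread.

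Between the cell types under DMSO no chaperone gene passed the test. There all 9 had a lower mean in EVI1 cells than in vector cells on the main probe set, by 0.03 to 0.16 on the log2 scale. A negative difference was seen in 45.3% of all genes. Of the 26 probe sets above the limit 21 were negative and 2 were at 0. Only 5 of the 9 genes were negative on all of their probe sets. Without both DMSO arrays of replicate 3 the difference was negative in 7 of the 9, at -0.15 to -0.04, and was 0 in HSPA4 and 0.03 in DNAJB1. None was called lower, where 0.682% of all genes were, and the adjusted p lay between 0.867 and 0.991. With the block none was called either, where 2.99% of all genes were. The number with an unadjusted p under 0.05 was 0 as well, against 9.79% of all genes. HSPE1 was the only member whose EVI1 DMSO arrays were all below the vector DMSO arrays, at 12.68 to 12.70 against 12.72 to 12.78, a gap seen in 6.35% of all genes. Its difference was -0.06 (95% interval -0.26 to 0.14). The widest interval was that of DNAJA1, from -0.47 to 0.30.

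Under ATRA 8 of 9 genes had a lower mean in EVI1 cells on the main probe set, and HSPA4 differed by 0.01. A negative difference was seen in 52.1% of all genes. Of the 26 probe sets above the limit 19 were negative, and 5 of the 9 genes were negative on all of theirs. No member was called, where 2.33% of all genes were lower, and 1 had an unadjusted p under 0.05, where 21.0% of all genes did. HSPE1 differed by -0.24 ± 0.09, with an adjusted p of 0.156, and its 3 EVI1 ATRA arrays were below its 3 vector ATRA arrays, which held for 9.03% of all genes. HSPA9 differed by -0.30 ± 0.16, with an adjusted p of 0.306. With the block both were called, at 0.0433 and 0.0185, where 12.3% of all genes were. By replicate number the HSPE1 difference was -0.06, -0.23 and -0.43 and that of HSPA9 was -0.13, -0.31 and -0.47, so both were smallest at number 1. HSPD1 and HSP90AB1 differed by -0.19 each and were not called in either fit (0.0757 and 0.0646 with the block).

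Whether the ATRA difference itself differed between the cell types was tested as an interaction, the ATRA difference in EVI1 cells minus that in vector cells. It ran from -0.18 for HSPE1 (95% interval -0.47 to 0.10) to 0.15 for HSPH1 (-0.29 to 0.59), with a median of -0.01 over the 9 genes and -0.02 over all genes. No member passed, with limma's adjusted p at 0.998 for each and at 0.477 to 0.966 with the block, and none had an unadjusted p under 0.05. Among all genes 0 passed in either fit, a share of 0%, and 362, or 2.57%, had an unadjusted p under 0.05. The calls of HSPE1, HSP90AB1 and HSPA9 in EVI1 cells and not in vector cells are therefore not shown to be a difference between the cell types.

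On the main probe sets the 4 group means had the same order in 8 of the 9 genes: vector DMSO highest, then EVI1 DMSO, vector ATRA and EVI1 ATRA. This order was found in 11.8% of all genes. HSPA4 had the last pair exchanged. Without both DMSO arrays of replicate 3 the order was found in 7 members, DNAJB1 no longer having it, and in 11.4% of all genes. The span from the highest to the lowest mean was 0.72 in HSPA9, 0.48 in HSPE1, 0.43 in HSP90AB1, 0.42 in HSPD1, 0.40 in HSPH1, 0.33 in DNAJA1, 0.30 in HSPA4, 0.25 in HSP90AA1 and 0.15 in DNAJB1. The SD within a group was between 0.01 and 0.30, and a gap between neighbours in this order was set against the larger of their 2 SDs. The 2 DMSO means were further apart than that in 2 genes, HSPE1 and HSP90AB1, and not in the other 7. The means of EVI1 DMSO and vector ATRA were further apart in 5 of 8 genes, HSPE1, HSPD1, HSP90AB1, HSPA9 and HSPH1, and those of vector ATRA and EVI1 ATRA in 4 of 8, the same genes without HSPH1. In HSPA4 only EVI1 DMSO and EVI1 ATRA were, and in HSP90AA1, DNAJB1 and DNAJA1 no neighbours were. In DNAJB1 the span was below every group's SD.

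Replicate 1 stood above the other replicates in all 4 groups for 8 of the 9 genes, and in 3 groups for HSPE1, a pattern present in 21.7% of all genes. Its mean deviation from the group mean was largest in DNAJA1, at 0.26, and in DNAJB1, at 0.22, and was 0.03 in HSPE1. In DNAJA1 and DNAJB1 this was larger than the ATRA difference itself. Within replicate numbers, ATRA was lower than DMSO at all 3 numbers for 8 of 9 genes in vector cells, which held for 27.4% of all genes, and for 8 of 9 in EVI1 cells, which held for 31.1%. DNAJB1 was the exception in both, with differences of -0.08, 0.08 and -0.36 in vector cells and 0, -0.09 and -0.19 in EVI1 cells. What the replicate numbers share was not tested.

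The 12 arrays over which the genes were correlated share the groups and the replicate numbers, so the values below are a description. Over the 36 pairs of the 9 genes the Pearson correlation ran from 0.38 (HSPE1 with DNAJB1) to 0.975 (HSP90AB1 with HSPA9), with a median of 0.856, where the median over all pairs of tested genes was 0.00585. The lowest of these values was reached by 22.5% of all pairs. After the group means were removed it ran from 0.208 (HSPE1 with HSPA4) to 0.947 (HSPA9 with DNAJA1). HSPE1 and HSPD1, the pair with the shared promoter region, correlated at 0.918, and at 0.656 within groups. By correlation with HSPE1 the other members ranked from 148 (HSP90AB1) and 204 (HSPD1) to 4176 (DNAJB1) among the tested genes, so many non-members lay closer to HSPE1 than any member did. The 5 non-member genes closest to the mean of the 9 were REXO4 (0.986), CDC123 (0.984), IPO4 (0.984), PSME3 (0.983) and TARDBP (0.983). Those closest to HSPE1 were MIS18A (0.99), CHERP (0.986), GCSH (0.98), DDX21 (0.979) and SOX12 (0.975).

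Genes that work with these chaperones were followed in 8 lists. The counts below stand beside the shares over all genes tested for ATRA: 7.66% were called lower and 7.45% higher in EVI1 cells, 1.52% lower in vector cells, and 11.3% lower and 11.1% higher for the averaged effect. With the block these shares were 19.4% lower and 16.3% higher in EVI1 cells, 10.1% and 9.96% in vector cells, and 21.4% and 19.2% for the averaged effect. The list counts of genes with an unadjusted p under 0.05 take both directions. Over all genes that share was 17.4% in vector cells and 28.8% in EVI1 cells. Lists of 4 to 23 genes give coarse shares, and no list was tested against the others. The lists too were chosen with earlier results known, so the shares describe them and do not test them. Leaving out both DMSO arrays of replicate 3, an alternative added for these lists after seeing the data, gave 807 genes called lower of 14080 in EVI1 cells, and its list counts are given too.

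Of 12 tested mitochondrial chaperones and proteases, 6 fell and 0 rose with ATRA in EVI1 cells, with a list median of -0.46. In vector cells limma called 0, 5 of the 12 had an unadjusted p under 0.05, and the median was -0.27. With the block 9 fell in EVI1 cells and 7 in vector cells. The count in EVI1 cells was 5 without both DMSO arrays of replicate 3. TRAP1, the mitochondrial HSP90, was at 10.98, 10.80 and 10.93 in vector DMSO, 10.58, 10.15 and 10.37 in vector ATRA, 10.94, 10.85 and 10.99 in EVI1 DMSO and 10.32, 9.81 and 9.75 in EVI1 ATRA. It fell by 0.97 in EVI1 cells on the log2 scale, with an adjusted p of 0.00265. The matrix protease LONP1 fell by 0.74, the intermembrane space protease HTRA2 by 0.65 and PMPCA, a subunit of the presequence peptidase, by 0.63. In vector cells TRAP1, LONP1, HTRA2 and PMPCA fell by 0.54, 0.43, 0.30 and 0.39, and each was called only with the block.

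The cytosolic chaperonin TRiC folds actin and tubulin, and prefoldin delivers clients to it. Of 12 tested genes of both complexes, 6 fell and 1 rose in EVI1 cells, with a median of -0.36. In vector cells limma called 0, 7 had an unadjusted p under 0.05 and the median was -0.26. Of those 7, PFDN5 rose, by 0.36, and the others fell. With the block 7 were lower and 2 higher in EVI1 cells, and 7 lower and 1 higher in vector cells. Without both DMSO arrays of replicate 3, 3 were lower and 0 higher in EVI1 cells. The TRiC subunits CCT6A and CCT3 fell by 0.43 and 0.41, and PFDN2 fell by 0.58, a call lost without those 2 arrays (adjusted p 0.0682). PFDN1 rose by 0.40 ± 0.12, with an adjusted p of 0.0374, which was 0.112 without those arrays.

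Of 14 tested HSP90 cochaperones 3 fell in EVI1 cells and 0 rose, and limma called 0 in vector cells, where 5 had an unadjusted p under 0.05. The medians were -0.21 and -0.18. With the block 8 were lower and 1 higher in EVI1 cells, and 5 were lower in vector cells. In EVI1 cells only FKBP4 was called without both DMSO arrays of replicate 3. FKBP4, which encodes the steroid receptor immunophilin FKBP52, was at 10.41, 9.89 and 9.83 in EVI1 DMSO and 9.48, 9.01 and 8.78 in EVI1 ATRA, without overlap. It fell by 0.95, with an adjusted p of 0.0109, which was a larger estimate than that of either HSP90 gene. In vector cells FKBP4 fell by 0.65, also without overlap, with an adjusted p of 0.118 that became 0.00139 with the block. FKBP5 and TTC4 fell by 0.41 and 0.38 in EVI1 cells (adjusted p 0.0839 and 0.0672 without those 2 arrays). CHORDC1 fell by 0.60 for the effect averaged over both cell types.

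Of 10 tested genes listed as nucleotide exchange and release factors of HSP70, 2 fell in EVI1 cells: BAG2, by 0.78, and STUB1, by 0.61. STUB1 encodes CHIP, a ubiquitin ligase that acts on HSP70 clients and is not itself an exchange factor. STUB1 alone was called without both DMSO arrays of replicate 3 (0.0291). In vector cells limma called 0, and 2 of the 10 had an unadjusted p under 0.05. BAG2 and STUB1 fell there by 0.44 and 0.46 and were called only with the block. The block gave 5 lower and 1 higher in EVI1 cells and 4 lower in vector cells. Of 23 tested J-domain genes, 1 fell in EVI1 cells, DNAJA3, the mitochondrial partner of HSPA9, by 0.70 with an adjusted p of 0.00712, and the list median was -0.05. In vector cells limma called 0 J-domain genes, and 3 of the 23 had an unadjusted p under 0.05. Of those 3, DNAJC27 rose, by 0.55, and DNAJA3 and DNAJB6 fell, by 0.39 and 0.45. With the block 6 J-domain genes were lower and 6 higher in EVI1 cells, and 3 were lower and 1 higher in vector cells. For the averaged effect 2 of the 23 rose, DNAJC27 by 0.46 and DNAJB2 by 0.29, and 1 fell, and the call of DNAJB2 was lost without both DMSO arrays of replicate 3 (0.0909). With the block 6 rose and 6 fell for that effect.

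The remaining lists hold other HSP70 genes, small heat shock proteins and heat shock factors. Of 7 other HSP70 and HSP110 genes 1 fell in EVI1 cells, HSPA4L, the testis-enriched HSP110, by 0.77, and the list median was 0. With the block 2 of the 7 were lower in each cell type, and HSPA4L and HSPA14 were called lower for the averaged effect in both fits, the latter not without both DMSO arrays of replicate 3 (0.0703). HSPA4L was not called in EVI1 cells without those arrays (0.0673). Of 6 small heat shock protein genes 0 were called in either cell type by limma. In vector cells 1 had an unadjusted p under 0.05, HSPB7, which rose, by 0.28, and in EVI1 cells 0 did. With the block 1 of the 6 was lower in EVI1 cells. HSPA1A and HSPA1B, the heat-induced HSP70 genes, have no probe set of their own here. Of 4 tested heat shock factors and regulators 1 was called in EVI1 cells, HSF2BP, named for its binding to HSF2, which fell by 0.45 and was not called without both DMSO arrays of replicate 3 (0.0584). With the block 1 of the 4 was higher in vector cells, and 1 was higher and 1 lower in EVI1 cells. For the averaged effect HSBP1, a negative regulator of HSF1, rose by 0.33. HSF1, named here as the main factor and not by the rule, had means of 8.4 and 8.26 in vector cells with DMSO and ATRA, and 8.45 and 8.22 in EVI1 cells, and was not called.

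**Figure D4:**
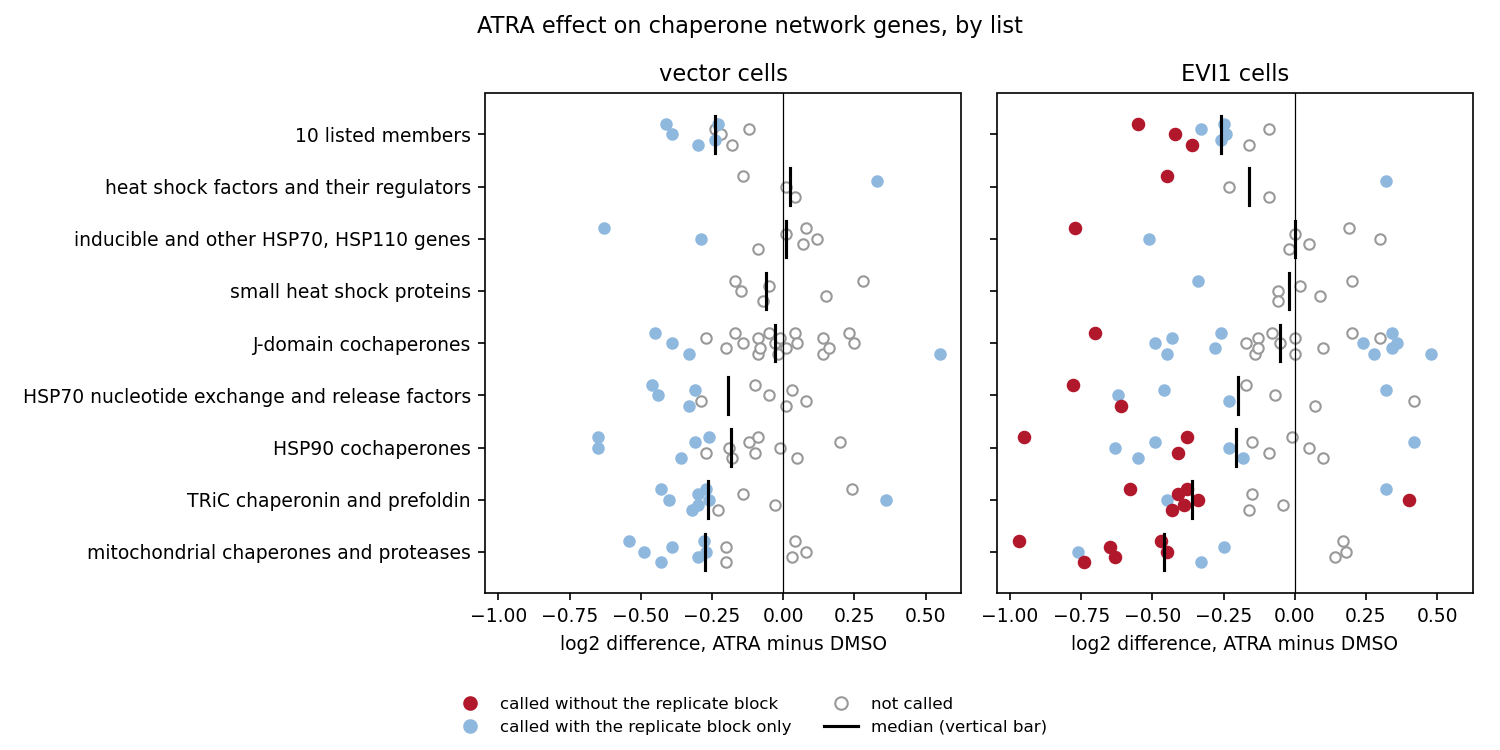
Each point is the log2 difference, ATRA minus DMSO, of 1 gene (horizontal axis), by list, in vector cells (left) and EVI1 cells (right). Red points passed an adjusted p of 0.05 without the replicate block, blue points only with it, and black bars mark list medians, the lowest of which is -0.46, for mitochondrial chaperones and proteases in EVI1 cells.

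Between the cell types the call rested for 1 network gene on values below the signal limit. DNAJC15 encodes a J-domain protein of the mitochondrial inner membrane. It was at 9.30, 9.34 and 9.40 in vector DMSO and 8.79, 9.41 and 9.24 in vector ATRA. In EVI1 cells it was at 4.42, 3.93 and 4.55 with DMSO and 4.04, 4.34 and 4.37 with ATRA, below the signal limit of 5 on every array. It passed the filter through the vector groups alone, so its call is no independent evidence and only a bound is given. Set against the limit, the vector mean was at least 20.3-fold higher under DMSO and at least 17.7-fold higher under ATRA. BAG4, an exchange factor of HSP70, was lower by 0.93 under DMSO (adjusted p 0.0215) and 0.69 under ATRA (0.0386). Neither difference of BAG4 was called without both DMSO arrays of replicate 3 (0.22 and 0.0638). Under ATRA HSF2BP and HTRA2 were lower in EVI1 cells, by 0.69 and 0.60, and PMPCB was higher, by 0.63; of these HTRA2 was not called without those arrays (0.0565). Under DMSO the only list calls were 1 of 23 J-domain genes and 1 of 10 exchange and release factors. Under ATRA they were the same genes, 1 of 4 heat shock factors and regulators, and 1 lower and 1 higher of 12 mitochondrial genes. Over all 14080 genes tested, 171 were called under DMSO and 790 under ATRA. The differences of the 9 chaperone genes in the same comparisons ran from -0.30 to 0.01. Whether the levels of DNAJC15, BAG4, HSF2BP, HTRA2 and PMPCB go with EVI1 or with the particular transduced line cannot be told apart here. The same holds for every other difference between the cell types.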

How the data were processed

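RNA of 12 U937 cultures was amplified and biotinylated from 250 ng of total RNA and hybridised to Affymetrix 3′ arrays, per the labels' protocols. The deposited values are log2 levels; the submitters' processing notes name RMA and Affymetrix Expression Console 1.3, without settings, as what the authors used. Nothing was rescaled here. Probe sets with 1 gene symbol in the platform annotation were kept, and the probe set with the highest mean stood for its gene. Genes at a log2 level of at least 5 on at least 3 arrays were tested (14080 of 19775). A model of 4 group means was fitted by lmFit and eBayes (limma 3.58.1, R 4.3.3), 6 comparisons were drawn (ATRA in each cell type, its average, EVI1 under each agent and the interaction), and p-values were adjusted over all tested genes (Benjamini-Hochberg). A call is an adjusted p under 0.05, and intervals are 95%. Fitted differences carry the standard error (SE).

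The replicate number was added as a block because the labels share it across groups and the arrays bear it out: after group means were removed, the same-number arrays correlated at 0.408 to 0.704 in all 18 pairs, and arrays of other numbers at -0.56 to 0.164. The labels do not say what a number shares. The labels call the replicates biological without naming separate thaws or transductions, so p-values measure the spread between these arrays. Precision is limited by this number of arrays.

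The members and the gene lists were chosen with earlier results of these data known. Besides the members, the genes named are the up to 4 called genes with the largest difference in each list and comparison, and the 5 genes most correlated with the members' mean and with HSPE1. Listed genes without a probe set of their own, and genes under the limit, were not tested. The fit without the block was tested on simulated data, with independent noise between arrays and planted differences larger than those of the members. That covers neither the deviations shared by replicate number nor differences of the members' size. Promoter sequences are from RefSeq (GRCh38.p14).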

Additional observations from a re-analysis of the deposited data

How the results depend on the processing

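The number of the 9 members called lower was recomputed under 20 alternatives. The replicate block moved it from 0 to 5 for ATRA in vector cells, from 3 to 7 in EVI1 cells, from 5 to 8 for the averaged effect and from 0 to 2 for EVI1 against vector under ATRA; it added no call under DMSO or in the interaction. Leaving out 1 array at a time gave 0 to 4 in EVI1 cells and 3 to 6 for the averaged effect. No member's called difference changed sign under any of the 20. The averaged ATRA differences of HSPE1, HSP90AB1 and HSPA9 were called under all 20, that of HSPD1 under 13 and that of HSPH1 under 10. In EVI1 cells HSPE1 was called under 19, HSPA9 under 16 and HSP90AB1 under 10. Without both DMSO arrays of replicate 3 the counts were 0 in vector cells, 2 in EVI1 cells and 4 for the averaged effect. Over all genes the block moved the number called from 496 to 2818 for ATRA in vector cells, from 2127 to 5023 in EVI1 cells, from 3158 to 5723 for the averaged effect, from 171 to 1013 for EVI1 under DMSO and from 790 to 3559 under ATRA. Leaving out 1 array tests fewer samples, and the cause of the changes was not tested.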
